A study of Mus musculus with 21 samples.

Results

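The genes described here encode 4 related cell-surface receptors: Kdr and Pdgfra, whose proteins FLK1 and PDGFRα were the antibody targets used to sort the cells of this study, and Kit and Pdgfrb, taken for comparison. Counted with them were all peaks listed within each gene body or within 50 kb of it. That gave 26 of the 51264 merged regions of open chromatin (7 at Kdr, 6 at Pdgfra, 2 at Kit and 11 at Pdgfrb), made up of 85 peaks. It gave 1 of the 4548 merged regions of the anti-Myc chromatin immunoprecipitation (ChIP-seq) and 0 peaks of the input. Peaks were taken by position, whatever their score.

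All libraries came from a single line of mouse embryonic stem cells named A2lox-Sox7-Myc, made from E14Tg2a cells, in which doxycycline switches on Myc-tagged Sox7. They were grown as embryoid bodies (EBs), aggregates in which mesoderm forms, and all groups were collected at day 4 after 0 h (uninduced) or 24 h (induced) of doxycycline at 1 µg/ml. ATAC-seq, in which a transposase inserts into open chromatin, was done on sorted cells with 2 libraries per group. PDGFRalpha+FLK1+ cells are called CPC here, PDGFRalpha-FLK1+ cells EPC, after the series' terms for cardiac and endothelial progenitors, and each was sorted from uninduced and induced EBs. The anti-Myc ChIP-seq used unsorted cells, with 4 induced and 4 uninduced lists and 1 uninduced input. A gate named in the growth protocol (PDGFRα+FLK1-) differs from the sample labels, and groups follow the labels.

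Kdr encodes a receptor for vascular endothelial growth factor (VEGF) and is needed for endothelial and blood precursors to form from mesoderm. Pdgfra and Pdgfrb encode receptors for platelet-derived growth factors, known for their roles in mesenchyme and in the cells around vessels, and Kit encodes the receptor for stem cell factor, used by blood, germ and pigment cell precursors. All 4 are receptor tyrosine kinases, which pair on binding their ligand and phosphorylate one another. Pdgfra, Kit and Kdr lie next to each other, in that order, on mouse chromosome 5, with gaps of 377 kb and 276 kb between the gene bodies, and Pdgfrb lies on another chromosome.

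Promoter sequences are shown for the 3 genes of the chromosome 5 cluster because their ATAC peaks differed in where they fell relative to the transcription start. Each runs from 250 bases before to 50 bases after the start, on the gene's own strand, from RefSeq (GRCm38.p6). Capitals mark matches, on either strand, to the motifs searched, which were AACAAT for SOX factors, AGATAA for GATA factors, AGGAAG for ETS factors, GGGCGG for Sp1 and TATAAA for the TATA box. No match overlaps another in the windows shown.
Kdr, chr5:75978406-75978705, minus strand: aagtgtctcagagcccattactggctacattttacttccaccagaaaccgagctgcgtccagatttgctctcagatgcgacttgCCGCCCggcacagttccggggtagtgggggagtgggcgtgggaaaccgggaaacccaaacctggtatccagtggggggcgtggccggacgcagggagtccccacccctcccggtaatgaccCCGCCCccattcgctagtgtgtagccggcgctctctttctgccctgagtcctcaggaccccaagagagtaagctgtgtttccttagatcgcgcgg
Kit, chr5:75574737-75575036, plus strand: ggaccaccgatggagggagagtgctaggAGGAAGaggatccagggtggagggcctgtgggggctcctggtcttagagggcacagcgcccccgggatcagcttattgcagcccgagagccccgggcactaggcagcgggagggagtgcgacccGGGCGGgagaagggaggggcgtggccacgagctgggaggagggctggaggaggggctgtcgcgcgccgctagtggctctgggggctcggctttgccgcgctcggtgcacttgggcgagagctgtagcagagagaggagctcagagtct
Pdgfra, chr5:75152001-75152300, plus strand: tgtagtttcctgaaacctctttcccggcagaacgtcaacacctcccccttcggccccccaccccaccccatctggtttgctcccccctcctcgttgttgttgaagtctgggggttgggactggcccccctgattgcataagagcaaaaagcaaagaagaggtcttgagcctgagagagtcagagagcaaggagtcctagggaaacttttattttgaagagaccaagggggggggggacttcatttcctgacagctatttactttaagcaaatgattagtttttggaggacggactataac

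The Kdr and Kit promoters overlapped an ATAC peak in 8 of 8 libraries, and the Pdgfra promoter in 0 of 8. Of 17491 promoters of protein-coding genes, 41.8% had a peak in all 8 libraries and 41.2% in none. In single libraries 46.9% to 53.4% of promoters had one. The Kdr window was 60.7% G or C with 19 CpG pairs, and the Kit window 69% with 20, against a median of 56.3% over all promoters. The Pdgfra window was 51% G or C with 5 CpG pairs, and its ratio of observed to expected CpG was 0.256, where the median was 0.576. GGGCGG matched at positions -166 and -45 in Kdr and -98 in Kit, AGGAAG at -222 in Kit, and no searched motif matched in the Pdgfra window. Over all promoters 46.3% held GGGCGG, 34.4% AGGAAG, 13.3% TATAAA, 9.96% AGATAA and 9.49% AACAAT. The RefSeq gene body of Pdgfra begins at 75151322, before the start used for its promoter at 75152251, and the window covers that later start alone.

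At Kdr (chromosome 5, 75932827 to 75979072), the region with the highest peak scores lay inside the gene, 15.4 kb downstream of the transcription start, and was listed in all 4 EPC libraries and in 1 of 4 CPC libraries. The score is each peak's own value from the authors' peak caller, in the MACS 1.4 format minus 10 times the log10 of the p-value, and it rises with depth, which is unknown. At this region (75961649 to 75963085) the score was 1011 and 415 in uninduced EPC and 888 and 755 in induced EPC. In CPC a peak was listed in uninduced replicate 2 alone, with a score of 106. The EPC peaks stood in the top 10.7% to 19.5% of their own lists and the CPC peak in the top 57.2% of its list. Exons and introns were not used here.

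The peak over the Kdr start (75977637 to 75979143) was present in every library. Its score was 55.4 and 88.7 in uninduced CPC, 207 and 97.4 in induced CPC, 394 and 118 in uninduced EPC, and 213 and 250 in induced EPC. In each of the 4 EPC libraries the inner region scored above the promoter of the same list. The promoter peak also overlaps Gm32727, a long non-coding RNA gene that shares the upper end of the Kdr body, so the signal at the start cannot be assigned to Kdr alone.

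A further Kdr region lay 31.7 kb beyond the 3′ end of the gene (75900030 to 75901159) and was listed in 4 of 4 EPC and 2 of 4 CPC libraries. Its scores were 285 and 284.5 in uninduced EPC, 305 and 251 in induced EPC, 118 in uninduced CPC replicate 1 and 74 in induced CPC replicate 2. Upstream of the gene, 28.5 kb outside it and inside Gm32727, a region (76007612 to 76008963) had a peak in 3 of 4 CPC and 1 of 4 EPC libraries and scores of 55.7 to 99.5. The other 3 Kdr regions were each listed in 1 or 2 libraries, with scores of 63.8 to 87.1.

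At Pdgfra (chromosome 5, 75151322 to 75198206), open chromatin clustered at the 5′ end of the gene. One region inside the gene, 2.27 kb downstream of the start (75154524 to 75157199), was listed in all 8 libraries. Its score was 463 and 63.2 in uninduced CPC, 367 and 272 in induced CPC, 282 and 120 in uninduced EPC, and 161 and 238 in induced EPC. It had the highest score of the Pdgfra window in 7 of the 8 lists, the exception being uninduced CPC replicate 2, the shortest ATAC list.

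Just upstream, 1.6 kb before the start (75149638 to 75150647), a region was listed in 4 of 4 CPC libraries and in 1 of 4 EPC libraries. Its score was 55.6 and 106 in uninduced CPC, 59.8 and 161 in induced CPC, and 61.7 in induced EPC replicate 1. A neighbouring region 3.26 kb before the start was listed in replicate 1 of uninduced and of induced CPC, with scores of 53.3 and 64.3. A region across the lower gene boundary was listed in 1 induced library of each cell type, and 2 regions beyond the 3′ end in uninduced EPC replicate 1 alone. EPC were sorted as negative for PDGFRα protein and CPC as positive, so a difference between them at Pdgfra cannot be told apart from the gate. Both cell types were sorted as positive for FLK1, the protein of Kdr.

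**Figure D1:**
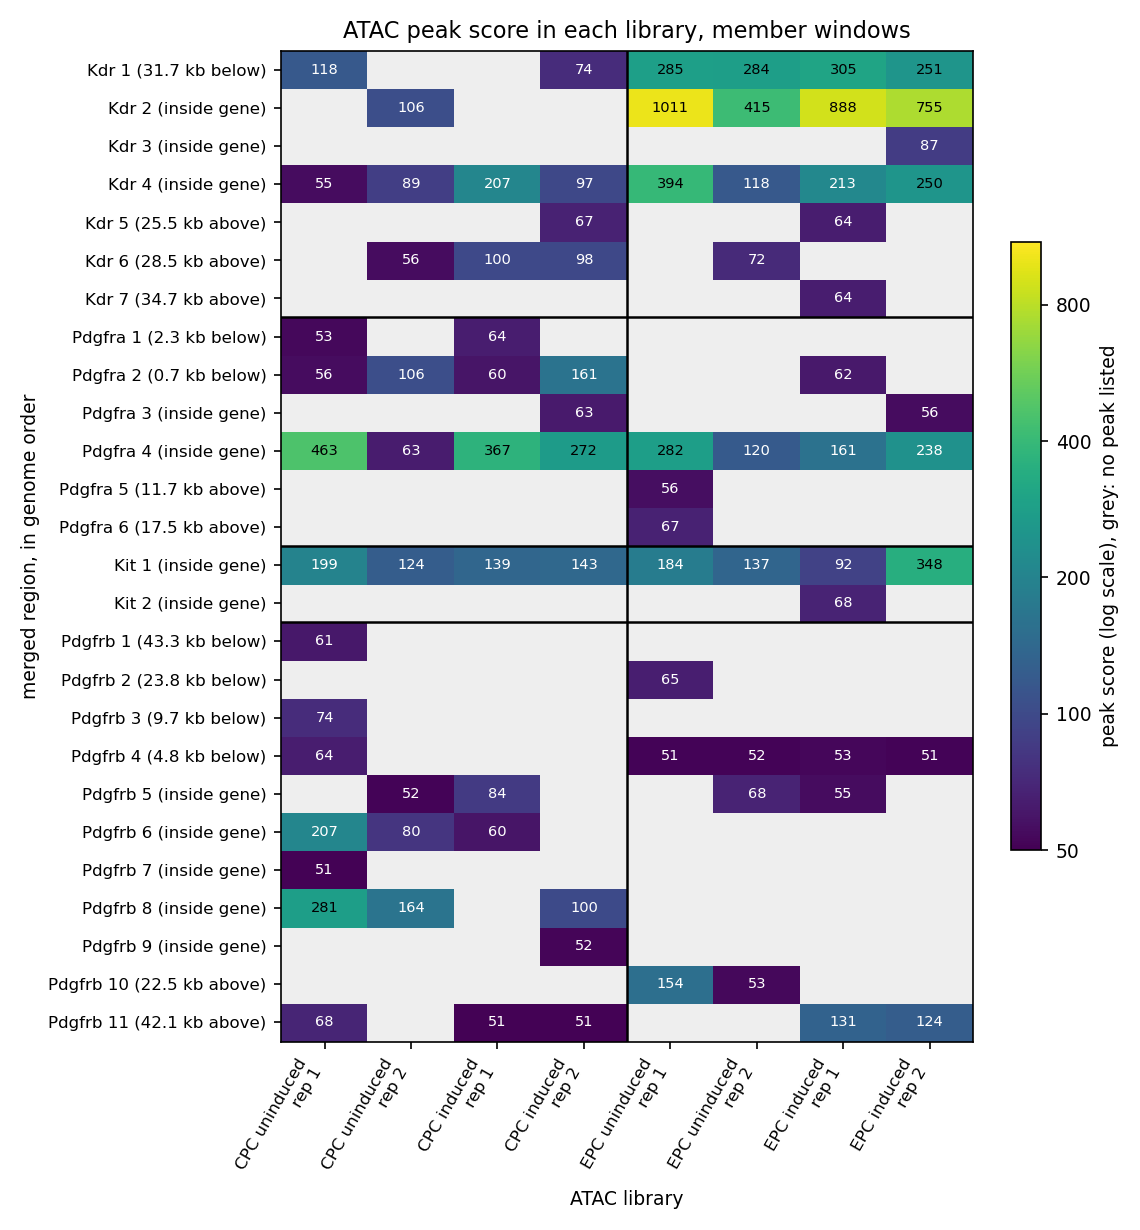
Peak score (colour, log scale, with the value printed) of each merged ATAC region, in rows, in each of the 8 libraries, in columns, for the Kdr, Pdgfra, Kit and Pdgfrb windows. Grey means that no peak was listed, and where a library had 2 peaks in a region the higher score is shown. Kdr region 2 runs from 415 to 1011 in EPC and is listed once in CPC.

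**Figure D2:**
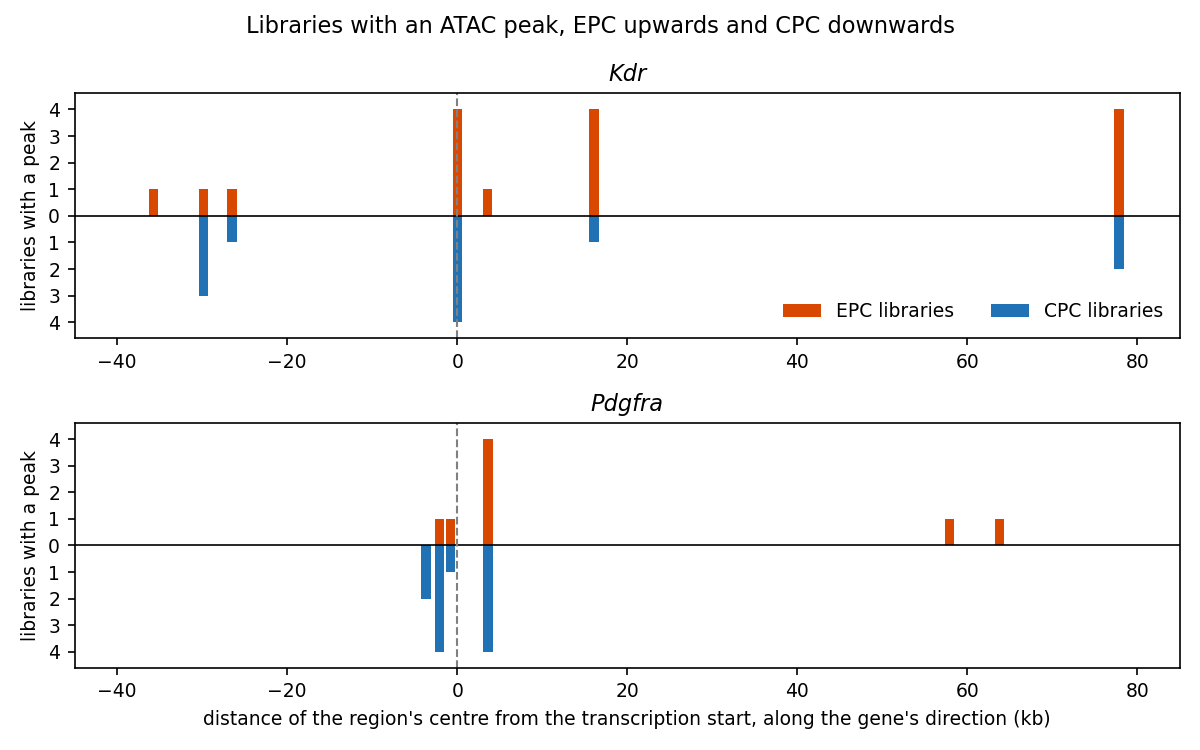
Number of EPC libraries (orange, upwards) and CPC libraries (blue, downwards) with a peak, out of 4 each, at every ATAC region of the Kdr and Pdgfra windows, by distance in kb from the transcription start (dashed line). Kdr has a bar of 4 in both directions at its start, and Pdgfra has its bars of 4 in both directions 3.61 kb downstream of its start.

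Kit (chromosome 5, 75574987 to 75656722) had a peak over its transcription start in 8 of 8 libraries, in a region from 75574319 to 75576301. The peak over the start itself scored between 54 (uninduced EPC replicate 2) and 348 (induced EPC replicate 2). In 3 libraries the region was split into 2 peaks. The only other region of the window was listed in induced EPC replicate 1, 72.9 kb inside the gene.

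Pdgfrb (chromosome 18, 61045127 to 61085067) had 11 regions, none of them in all 8 libraries and 5 of them in 1 library each. Inside the gene, 2 regions were listed in 3 of 4 CPC libraries and in 0 of 4 EPC libraries. The first (61046822 to 61047850) scored 207 and 80.5 in uninduced CPC and 59.7 in induced CPC replicate 1. The second (61057983 to 61059073) scored 281 and 164 in uninduced CPC and 99.7 in induced CPC replicate 2. A region at the lower gene boundary had a peak in 2 libraries of each cell type, with scores of 51.6 to 84.5.

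The Pdgfrb window also holds 5 other protein-coding genes, among them Cdx1 and Csf1r, the receptor gene for colony stimulating factor. A region 4.76 kb below Pdgfrb and overlapping Gm52351 was listed in 4 of 4 EPC and 1 of 4 CPC libraries, but with scores of 51.4 to 52.7 in EPC it stood near the lowest score of about 50 in these lists. Of the regions inside Csf1r, one (61107532 to 61108399) was listed in both uninduced and neither induced EPC library, with scores of 154 and 53.5. The other (61127123 to 61128099) was listed in both induced and neither uninduced EPC library, with scores of 131 and 124, and in 3 of 4 CPC libraries, with scores of 51 to 68.5.

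The first comparison asked how the 2 sorted cell types differed at these genes. By the rule that a region must be listed in all 4 libraries of one cell type and in 0 of the other, 0 of the 26 regions were CPC-only and 0 EPC-only, against 1.8% and 2.1% of all ATAC regions. With 1 library of the other cell type allowed, a rule chosen after the data were examined, 2 regions were listed in EPC (the inner Kdr region and the region below Pdgfrb), against 3.27% of all regions. By the same rule 1 was listed in CPC (upstream of Pdgfra), against 2.79%. Single libraries decided these calls: the inner Kdr region was EPC-only without uninduced CPC replicate 2, and the region below Pdgfrb without uninduced CPC replicate 1. The region upstream of Pdgfra was CPC-only without induced EPC replicate 1, and the inner Pdgfrb regions were so without induced CPC replicate 2 (the first) or 1 (the second). Regions listed in all 8 libraries were 3 of the 26, where 25.5% of all regions were.

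For a value per library, the base pairs covered by ATAC peaks in each window were summed. At Kdr they were 1687 and 2587 bp in uninduced CPC, 1664 and 3555 bp in induced CPC, 3969 and 3504 bp in uninduced EPC, and 4183 and 3601 bp in induced EPC. Within each doxycycline state both EPC libraries were above both CPC libraries, and over both states induced CPC replicate 2 overlapped uninduced EPC replicate 2. The means were 3814 ± 317 bp in EPC and 2373 ± 897 bp in CPC (SD, n = 4 each), a ratio of 1.61. The difference of 1441 bp had an exact permutation p of 0.0556, two-sided with labels exchanged within doxycycline state, the smallest that this design allows, and an adjusted p of 0.331 over 19560 genes (n = 4 each). Of these genes 88.7% had a lower difference, and the median gene was 254 bp higher in EPC. With peaks of score 100 or more alone, the Kdr difference was 2449 bp. It was 1227 bp with 10 kb of flank, 1213 bp in the gene body alone and 1277 bp with lists of equal length. For each of these the exact permutation p was 0.111, above the smallest possible. With length as a share of all covered length it was 0.167, and with the number of peaks 0.222. In bulk libraries, more cells with an open site and a more open site in each cell cannot be told apart.

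At Pdgfra the order of the means was opposite. Covered length was 3905 and 1431 bp in uninduced CPC, 4099 and 3072 bp in induced CPC, 2581 and 924 bp in uninduced EPC, and 1547 and 2183 bp in induced EPC. The lowest CPC value, uninduced replicate 2, lay below 3 of the EPC values, so the groups overlapped. Means were 3127 ± 1215 bp in CPC and 1809 ± 727 bp in EPC (SD, n = 4 each), with an exact permutation p of 0.167 and an adjusted p of 0.471 over all genes. Only 2.24% of genes had a lower value of EPC minus CPC than the -1318 bp of Pdgfra. The difference was -699.5 bp without uninduced CPC replicate 1 and ran to -1936.5 bp without other single libraries. Within the gene body alone it was -629.5 bp (exact permutation p = 0.278). With 10 kb of flank it was -1633.5 bp, with an exact permutation p of 0.0556, the smallest possible, and an adjusted p of 0.383.

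Pdgfrb was the 1 gene of the 4 whose CPC and EPC libraries did not overlap: 2132 to 5529 bp in CPC and 1276 to 1936 bp in EPC, where 2.81% of genes had all CPC libraries above all EPC libraries. Its difference was -1393.5 bp, with an exact permutation p of 0.0556, the smallest possible, and an adjusted p of 0.331 (n = 4 each). Without uninduced CPC replicate 1, which alone had 7 of the peaks, the difference was -652 bp, and without uninduced CPC replicate 2 it was -2135 bp. With peaks of score 100 or more alone it was -171.5 bp, with an exact permutation p of 0.722. The window also takes in Cdx1, Slc6a7 and Csf1r, and within the Pdgfrb gene body alone the difference was -1783 bp. At Kit the means were 1557 ± 496 bp in EPC and 1100 ± 320 bp in CPC (SD, n = 4 each), with overlapping libraries, an exact permutation p of 0.0556 and an adjusted p of 0.331. Of all genes 61% had a lower difference than the 457 bp of Kit. With length as a share of all covered length the exact permutation p of Kit was 0.278, and with the number of peaks 0.667. With peaks of score 100 or more alone, the Kit difference turned from 457 bp to -92 bp.

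**Figure D3:**
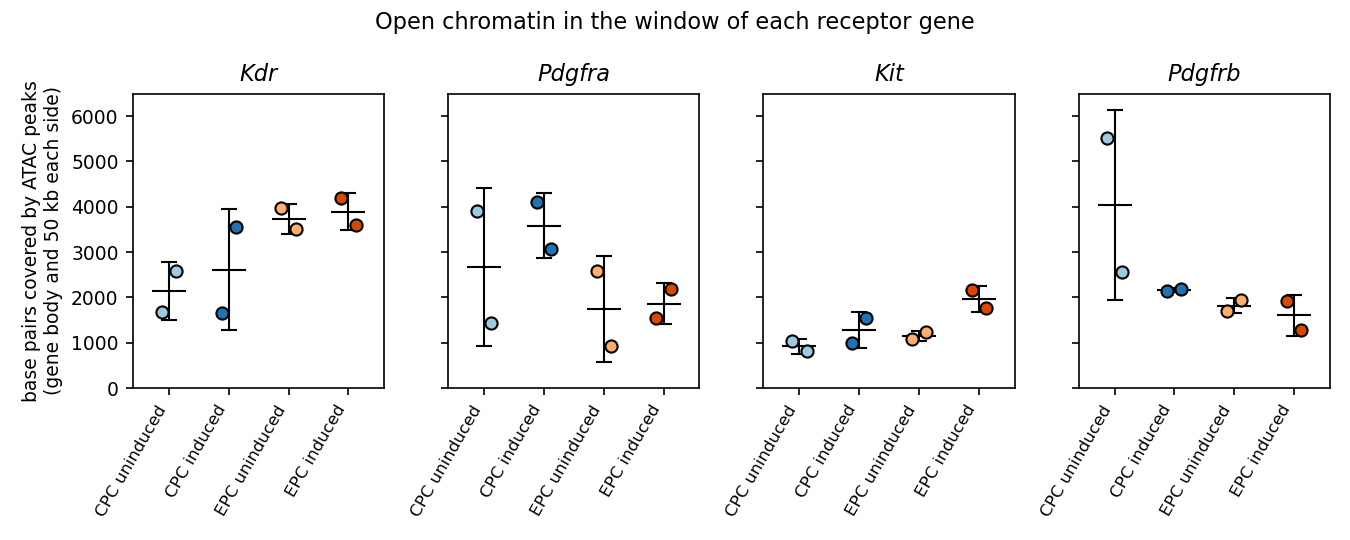
Base pairs covered by ATAC peaks within the gene body and 50 kb on each side, in each library (points) of the 4 groups, with the mean and SD (bars, n = 2). In the Kdr panel all EPC libraries lie between 3504 and 4183 bp, and in the Pdgfra panel the uninduced CPC libraries lie at 3905 and 1431 bp.

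**Figure D4:**
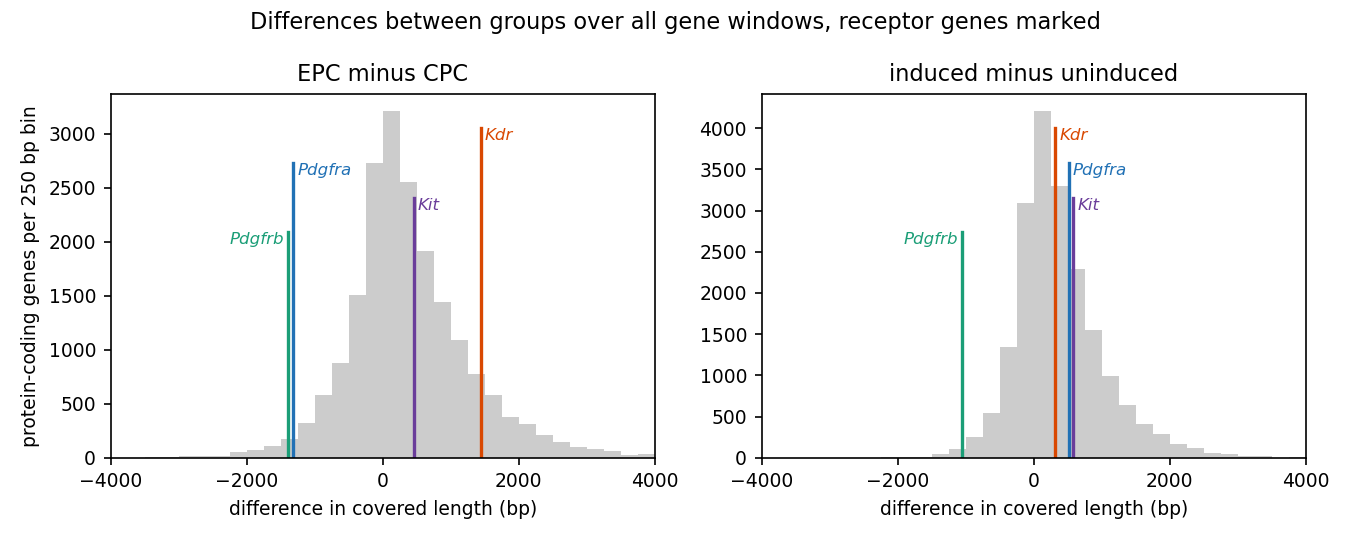
Number of protein-coding genes (grey bars, bins of 250 bp) by difference in covered length between EPC and CPC (left) and between induced and uninduced libraries (right), with the 4 receptor genes as coloured lines whose height carries no value. The axis ends at 4000 bp on each side, and on the left Kdr stands at 1441 bp, Pdgfra at -1318 bp and Pdgfrb at -1393.5 bp.

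The second comparison asked whether 24 h of Sox7 changed open chromatin at the genes used for sorting. A region was called gained in a cell type when its 2 induced libraries listed a peak and its 2 uninduced libraries did not, and lost when only the uninduced ones did. By these rules 0 regions of the Kdr, Pdgfra and Kit windows were gained or lost in CPC or EPC. With 2 libraries per group these calls moved with single libraries: without uninduced CPC replicate 1 the inner Kdr region was lost in CPC, without uninduced CPC replicate 2 a region upstream of Kdr was gained in CPC, and without induced EPC replicate 2 the count gained in EPC over all windows was 5. Over the 26 regions, 0 were gained and 0 lost in CPC, against 5.75% and 2.35% of all ATAC regions. In EPC 1 was gained and 1 lost, both inside Csf1r, against 6.12% and 1.82%. The gained one is also in the authors' deposited list of EPC peaks found after induction only, and that was the sole entry of their induced-only lists in any of the 4 windows.

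Covered length at Kdr was 2937 ± 1012 bp in uninduced and 3251 ± 1096 bp in induced libraries (SD, n = 4 each). The difference of 314 bp had an exact permutation p of 0.556 and turned to -158.75 bp without induced CPC replicate 2, to -131.5 bp with 10 kb of flank, and to -450.5 bp with scores of 100 or more. At Pdgfra the means were 2210 ± 1326 and 2725 ± 1109 bp (exact permutation p = 0.556), and the difference of 515 bp turned to -103.5 bp without uninduced CPC replicate 2. Kit went from 1039 ± 175 to 1618 ± 483 bp and Pdgfrb from 2933 ± 1768 to 1882 ± 420 bp (exact permutation p = 0.111 for each, n = 4). With scores of 100 or more the Kit difference fell from 579 to 48 bp and that of Pdgfrb went from -1051 to -539.5 bp. Without uninduced CPC replicate 1 the Pdgfrb difference was -310 bp. The share of genes with a lower difference was 54% for Kdr, 66.8% for Pdgfra, 70% for Kit and 0.89% for Pdgfrb. The adjusted p over all genes was 0.909 for Kdr and Pdgfra and 0.664 for Kit and Pdgfrb, and the median gene was 260.5 bp higher after induction. In both contrasts 0 of 19560 genes passed an adjusted permutation p of 0.05. With labels exchanged within the other factor none could pass it unadjusted, since the smallest p is then 0.0556. With labels exchanged freely over the 8 libraries the smallest exact permutation p is 0.0286, which Pdgfrb reached for EPC minus CPC. Under that scheme 2053 of the 19560 genes (10.5%) had an unadjusted p under 0.05 between cell types and 885 (4.52%) with induction. The only p under 0.05 in that scheme is 0.0286, so these are the genes whose groups did not overlap. After adjustment 0 passed. For 0 of the 4 genes were all induced libraries above all uninduced ones or the reverse, as they were for 4.22% and 0.302% of genes.

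The third comparison asked whether Myc-tagged Sox7 was found near these genes. The Kdr, Kit and Pdgfrb windows held 0 ChIP peaks in all 8 lists, and 25.9% of genes had a ChIP peak in their window in any list. The Pdgfra window held 1, in induced replicate 3, 12.9 kb below the gene boundary and inside the non-coding gene Gm19583 (75137650 to 75138462). Its score was 46, rank 2319 of the 2807 peaks in the longest ChIP list. By the rule of a peak in at least 3 of 4 induced and 0 uninduced libraries, 0 induced sites fell in the windows, where 1.88% of genes had one. Of all ChIP regions 5.17% met the rule. Missing peaks set no limit on binding, because the depth of the lists is unknown.

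Of the authors' deposited Sox7 list 0 entries fell in the 4 windows, where 5.14% of genes had one, and the nearest to the chromosome 5 cluster lay outside them. One (75826087 to 75826727) is between Kit and Kdr, 106 kb beyond the 3′ end of Kdr and 169 kb from Kit, and it is also in their list named for Sox7 and Gata4. A ChIP peak was listed there in induced replicates 1 and 3, with scores of 44.1 and 94.8, and an ATAC peak in induced EPC replicate 2 alone, with a score of 96.9. Closer to Kdr, at 101 kb, a ChIP peak was listed in induced replicate 2 with a score of 65.7, and it overlapped an ATAC region (75829987 to 75831115) listed in 3 of 4 EPC and 0 of 4 CPC libraries. The other entry (75063121 to 75063757) is 87.6 kb below Pdgfra but 11.8 kb from Gsx2, a homeobox gene, with ChIP scores of 91.8 and 90.3 in induced replicates 1 and 3. At that entry an ATAC peak was listed in both induced libraries of CPC and of EPC and in 0 of 4 uninduced libraries. Between the windows of the cluster, 8 ATAC regions were listed in all, 5 from Pdgfra to Kit and 3 from Kit to Kdr. The 3 include the 2 already described above (75826099 to 75826718 and 75829987 to 75831115). Those 3 had no CPC peak, and 2 of them were listed in a single EPC library. Of the 5, 3 had no EPC peak and 2 no CPC peak. One of these (75385504 to 75386525) was gained in CPC and overlapped a ChIP peak of induced replicate 3 with a score of 48.5, and another (75460285 to 75461008) was lost in EPC. Of all ATAC regions 23.6% had no CPC peak and 22.1% no EPC peak.

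Other receptors and ligands of these families were taken from a list of 19 genes. Of the 6 receptors (Csf1r, Flt3, Flt1, Flt4, Nrp1 and Nrp2), 0 had cell types that did not overlap in covered length. In either contrast 0 passed, but no gene could, since the smallest exact permutation p is 0.0556. The Csf1r window shares the regions described beside Pdgfrb. Flt1, another VEGF receptor gene, had 1 EPC-only region and Nrp2, a VEGF co-receptor gene, 1 CPC-only region, where 7.58% and 5.01% of all genes had one. Of the 13 ligands, Kitl, the gene of the KIT ligand, was covered over 5364 bp in CPC and 2936 bp in EPC with no overlap. Of all genes 2.81% were higher in CPC in this way. Kitl also had 2 CPC-only regions. Pdgfb and Flt3l were higher in EPC with no overlap (1663 against 961 bp and 9750 against 7924 bp), where 7.69% of genes did so. Each of the 2 had an induced ChIP site in its window, where 1.88% of all genes had one. The remaining 10 ligands overlapped, among them Pdgfc with 1 CPC-only region and Il34 with 1 EPC-only region. The median difference was 46.5 bp for the receptors and 132.5 bp for the ligands, against 254 bp over all genes.

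The labels of the sorted cells were set beside marker genes. Over all genes 7.58% had an EPC-only and 5.01% a CPC-only region, 7.69% had all EPC libraries above all CPC libraries and 2.81% the reverse. Of 14 endothelial and blood markers, 8 had an EPC-only region and 2 a CPC-only region in their windows, and 5 (Etv2, Tal1, Gata2, Fli1 and Egfl7) had all EPC libraries above all CPC libraries. Of 10 cardiac mesoderm markers, 2 (Tbx20 and Smarcd3) had all CPC libraries above all EPC libraries and 0 the reverse. A CPC-only region lay at 2 of these 10 and an EPC-only region at 1. By mean covered length, the only endothelial and blood markers lower in EPC were Runx1 (-402 bp), Lmo2 (-276 bp) and Pecam1 (-94.25 bp). Runx1 and Lmo2 held the CPC-only regions of that list. The only cardiac markers higher in EPC were Mef2c (2046 bp), Nkx2-5 (799 bp) and Tbx5 (595 bp), and Mef2c held EPC-only regions. By comparison, 0 of 5 pluripotency and 0 of 5 endoderm markers differed without overlap, and of 5 paraxial mesoderm markers Tcf15 was higher in EPC.

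Over the 8 libraries and 12254 genes on other chromosomes with at least 2000 bp covered on average, the genes most like Kdr in covered length were Nbeal2, Nradd and Selenoo (Pearson r = 0.936, 0.936 and 0.931). Those most like Pdgfra were Gm21162, Bmp2, a bone morphogenetic protein gene, and AI661453 (r = 0.989, 0.978 and 0.974). All points share the same libraries and list lengths, so these values are a description. On this scale the mean length over the 8 libraries was 3094 bp for Kdr, 2468 bp for Pdgfra, 2407.5 bp for Pdgfrb and 1328 bp for Kit, against 2919 bp for the median gene. These are sums over windows of unequal size and were not set against each other.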

How the data were processed

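The members and lists were chosen with earlier results of these data known. Each library came as a peak list, beside 4 lists that the authors derived from them. GRCm38 (mm10) is the build and MACS 1.4, Bowtie2 and bedtools are among the tools named, with no role, per the submitters' processing notes. The score of each peak was used as deposited by the authors. Depth is unknown. Lists held 23068 to 30732 (ATAC), 772 to 2807 (ChIP) and 689 (input) peaks, and the 4 RNA-seq samples were not analysed here.

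Uninduced ChIP lists 2 and 4 shared 75.8% of peak starts (next highest pair 1.04%) and were counted as 1 library. Peaks of an assay were merged where they overlapped by 1 bp. Gene bodies came from RefSeq GRCm38.p6 (21883 protein-coding genes), with start sites and strand from its promoter table, which gave the chromosome 5 genes. Covered length was tested by exact permutation of libraries with Benjamini-Hochberg adjustment over 19560 genes with a peak (Python 3.11.15, numpy 2.4.6). The permutation was checked on simulated data with large planted differences, and the adjustment was not part of that check. No label says that replicates were separate cultures, and the p-values reflect library spread that may be technical. Named regions were those that a call rule picked, those nearest the start and those open in all 8 libraries; others in the text were named after their values were seen. Genes most like Kdr and Pdgfra were the 3 on other chromosomes with the highest Pearson r. Alternatives changed the flank, score minimum, list length, merging, measure, permutation scheme and libraries.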

Additional observations from a re-analysis of the deposited data

Results flagged for a closer look

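The number of ChIP peaks in the Pdgfra window was 1 in induced replicate 3 and 0 in the other 3 induced libraries. A single peak in 1 library is always enough to raise this flag when the others hold 0. The flag therefore does not show that induced replicate 3 stood apart from its group. That list is the longest of the ChIP lists, with 2807 peaks against 1061 to 1851 in the other induced lists, and 25.9% of genes had a ChIP peak in their window in some list.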

How the results depend on the processing

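The direction of EPC minus CPC held for Kdr, Pdgfra and Pdgfrb under the 14 alternatives that recompute it and for Kit under 13, the exception being -92 bp with scores of 100 or more. Its size moved: with scores of 100 or more it was 2449 bp for Kdr and -171.5 bp for Pdgfrb. For Kdr it was 1227 bp with 10 kb of flank, 1213 bp in the gene body and 1277 bp with lists of equal length. For Pdgfra it was -1633.5 bp with 10 kb of flank, -629.5 bp in the gene body and -873 bp with lists of equal length. No adjusted p passed under any of the 14 (lowest 0.279, with lists of equal length) or with labels exchanged freely (lowest 0.272). Under the 14 none could pass, since the smallest exact permutation p is 0.0556, or 0.111 with a library left out. Leaving out single libraries gave 968 to 1914 bp for Kdr, -1936.5 to -699.5 bp for Pdgfra, 318 to 596 bp for Kit and -2135 to -652 bp for Pdgfrb. For induced minus uninduced, Kdr reversed to -131.5 bp (10 kb), -152.75 bp (gene body), -450.5 bp (scores of 100 or more), -5.29 (length as a share of all covered length, in bp per 1e+06 bp), and ran from -159 to 787 bp without single libraries. With lists of equal length the induction difference was 150 bp for Kdr, 178 bp for Pdgfra and 304.5 bp for Kit. Kit came to 48 bp with scores of 100 or more, Pdgfra to 830.5 bp with 10 kb of flank, and Pdgfrb to -505 bp in the gene body and -539.5 bp with scores of 100 or more. Pdgfra ran from -103.5 to 1133.5 bp, Kit from 440 to 718 bp and Pdgfrb from -1792 to -310 bp. Region counts without single libraries ran from 0 to 3 (CPC gained), 0 to 4 (CPC lost), 0 to 1 (CPC-only, EPC-only), 1 to 5 (EPC gained) and 1 to 4 (EPC lost). With 10 kb of flank 0 EPC regions were gained and 0 lost, with scores of 100 or more 0 were lost in EPC and 1 in CPC, and with lists of equal length 1 was lost in CPC. With 1 library of the other cell type allowed, 2 regions were EPC-only and 1 CPC-only. Induced ChIP sites were 0 throughout. Replicate numbers are not said to pair libraries, and deviations of same-numbered libraries correlated at -0.152 to 0.176 over 6 pairs of groups. With the replicate block, the exact permutation p was 0.125, its smallest value, for EPC minus CPC at each gene (1441 bp at Kdr), and 0.25 to 0.375 for induction. The unknown depth limits every absence of a peak. The cause of each change was not tested.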
